A study of Mus musculus with 6 samples.

Results

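The genes described here encode parts of the axoneme, the microtubule scaffold of motile cilia and of the sperm flagellum. They are the protein-coding genes whose symbols start with *Cfap*, *Dnah*, *Dnaaf*, *Dnaic*, *Dnal*, *Dnali*, *Rsph*, *Tekt* or *Drc* followed by a digit. Of the 54532 genes in the deposited table, 22046 were protein-coding and 71 met this rule. They fell into 31 cilia and flagella associated (CFAP) genes, 15 dynein heavy chain genes, 5 dynein intermediate and light chain genes, 4 dynein assembly factor genes, 3 genes of the nexin-dynein regulatory complex, 8 radial spoke genes and 5 tektin genes. The members were spread over 17 chromosomes, and 0 of them lay on the X or Y chromosome.

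RNA-seq was performed on STRA8+ germ cells of mouse testis. STRA8 marks germ cells that are differentiating towards meiosis. The Control group held 3 libraries with the genotype Cre, and the cKO group held 3 libraries with the genotype *Srsf1* knockout, all of them entered with a conditional knockout as treatment. *Srsf1* encodes a splicing factor of the SR family. The labels do not give the Cre driver, the strain, the age of the mice or the number of animals per library, and nothing in them says that the libraries of a group came from separate animals, so the p-values measure the spread between these libraries, which may be technical.

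An axoneme is built from outer doublet microtubules around a central pair. Dynein motors, which are put together in the cytoplasm by assembly factors before they are carried to the axoneme, form the outer and inner arms that slide the doublets. The nexin-dynein regulatory complex links neighbouring doublets, radial spokes connect them to the central apparatus, and tektins lie inside the doublet wall. In the testis, genes of the axoneme are known to be switched on largely in meiotic spermatocytes and in round spermatids, ahead of flagellum assembly. RFX transcription factors are known regulators of such genes in ciliated cells and in spermatids.

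Promoter sequence was examined because the members moved together in the comparison described below. RefSeq promoter windows on GRCm38.p6, each from 250 bases before to 50 bases after the start site, were matched for 59 of the 71 members, with 66 windows in all. The half-site of RFX factors, GTTGCC on either strand, was searched for, together with its pair, in which a half-site of the form GTTNCC is followed by 0 to 3 bases and its reverse complement. The stretches below, each 60 bases long and written 5′ to 3′ on the strand of the gene, show both pairs that were found and, for each family in which a member lower in cKO had a half-site wholly before the start site, that of the member most abundant in Control. Capitals mark the half-sites and pairs. The pairs of *Cfap298* start 188 and 69 bases before the start site, and the half-sites printed for the other genes start 11 to 219 bases before it. Assembly factors and radial spoke genes also had half-sites that are not printed, among them that of *Dnaaf5*, which runs across the start site, and that of *Rsph3b*, which lies after it.
Cfap298, chr16:90935001-90935060, minus strand: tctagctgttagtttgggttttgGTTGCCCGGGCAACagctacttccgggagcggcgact
Cfap298, chr16:90934882-90934941, minus strand: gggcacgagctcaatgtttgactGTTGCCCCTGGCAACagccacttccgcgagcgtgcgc
Cfap300, chr9:8042961-8043020, minus strand: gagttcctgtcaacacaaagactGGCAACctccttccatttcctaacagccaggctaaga
Dnah7c, chr1:46425276-46425335, plus strand: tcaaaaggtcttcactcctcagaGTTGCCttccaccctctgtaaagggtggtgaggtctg
Dnaic2, chr11:114727359-114727418, plus strand: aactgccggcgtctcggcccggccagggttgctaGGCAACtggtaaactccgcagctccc
Drc1, chr5:30281333-30281392, plus strand: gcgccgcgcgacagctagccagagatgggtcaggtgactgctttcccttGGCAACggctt
Tekt1, chr11:72361883-72361942, minus strand: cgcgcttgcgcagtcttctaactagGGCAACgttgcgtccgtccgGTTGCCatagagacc

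The RFX half-site was present in 36.4% of the members' windows, against 12.6% of the windows of protein-coding genes and 12.5% of all RefSeq promoter windows. The pair was present in 1 of the 66 windows, that of *Cfap298*, or 1.52% against 0.762% of protein-coding windows. Among the members with a window, the half-site occurred in 37.3% of the 51 that were called lower in cKO (limma adjusted p of at most 0.05, with no filter on low values) and in 37.5% of the 8 that were not, some of which were under 1 FPKM and could hardly be called.

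The recognition letters of MYB factors were searched for on both strands in 2 forms. The first, AACGG, occurred in 42.4% of the members' windows, against 19.1% of protein-coding windows. The second, CAGTTG, occurred in 27.3% against 12.5%. These letters can overlap those of an RFX half-site, as the second form does in *Dnaic2* above. The cAMP response element TGACGTCA, bound by the spermatid regulator CREM, occurred in the window of *Dnah6* alone (1.52%, against 2.23% of protein-coding windows). The forkhead motif TGTTTAC, of the type bound by FOXJ1, occurred in those of *Cfap20*, *Cfap43*, *Dnah17* and *Tekt3* (6.06% against 3.01%). The median GC content was 55.3% in the members' windows and 56.3% in protein-coding windows. A match is a run of letters and was not shown to be a binding site.

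**Figure D1:**
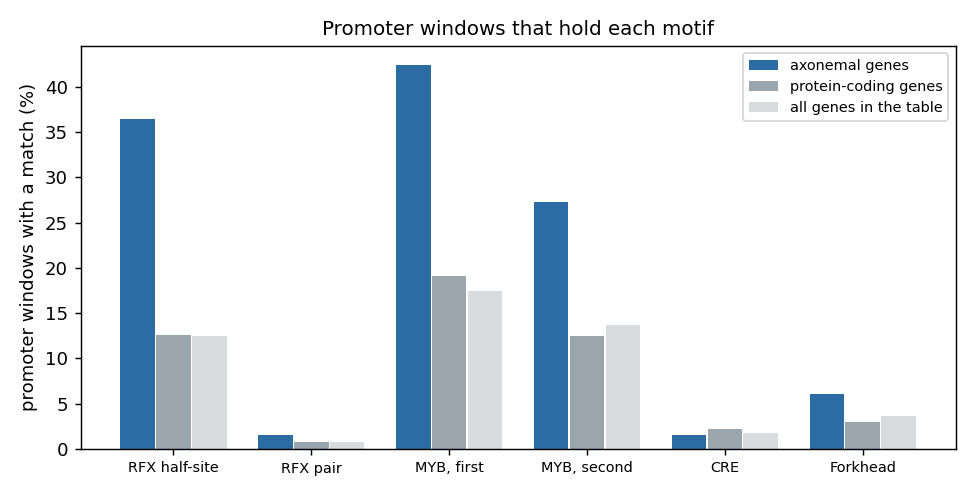
Share of promoter windows (%) that hold each motif, each window counted once. The sets are the axonemal genes (66 windows), protein-coding genes (21262 windows) and all RefSeq promoter windows (32851), which the figure labels as all genes in the table. The RFX half-site (36.4% against 12.6%) and both MYB forms are found in a larger share of the axonemal windows than of protein-coding windows, while the RFX pair and the cAMP response element are each found in 1 axonemal window.

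The values are FPKM, the fragments counted on a gene scaled to its length and to the size of the library, so levels can be compared between genes. Between 14447887 and 17310353 fragments were counted per library. *Srsf1* had 84.7, 45.2 and 51.9 FPKM in Control and 5.08, 4.94 and 5.17 FPKM in cKO (log2 fold change -3.29 ± 0.22 SE, limma adjusted p = 5.6e-05), so every library matched its label. The cKO and Control libraries were compared with limma on log2(FPKM + 1) over the 15451 genes whose mean reached 1 FPKM, with Benjamini-Hochberg adjustment over all of them. Folds on this scale understate the change of genes with low FPKM. Here "lower" and "higher" refer to cKO against Control at an adjusted p of at most 0.05, SE is the standard error of the log2 fold change, and n = 3 libraries in each group.

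Most axonemal genes were lower in cKO, and every family held such genes. Summed over the 71 members, the level was 1120, 1080 and 961 FPKM among the Control libraries and 271, 256 and 247 FPKM among those of cKO. In the fit without a filter, which tested all 71 members among 35994 genes, 60 were lower and 0 higher, where 12.1% of all genes in that fit were lower and 4.37% higher. With the filter, 63 members were tested, of which 58 were lower and 0 higher, against 22.2% of all genes tested that were lower and 11.8% that were higher. Of the 63, 59 had an unadjusted p under 0.05, which were the 58 and *Dnah10*, and limma-voom on fragment counts also called 0 higher. In 29 of the members tested the cKO mean was under 1 FPKM, so they passed the filter through Control only. The median log2 fold change was -1.46 over all 71 members and -1.55 over the 63, whereas that of all genes tested was -0.0082. All 3 cKO libraries were below all 3 Control libraries for 64 of the 71 members and for 59 of the 63 tested, against 28.6% of all genes tested, and 0 members had all cKO libraries above Control, against 21.8%. Bulk values cannot tell fewer cells that express a gene from less RNA per cell.

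The members differed widely in how much transcript was left. The cKO mean was under 10% of the Control mean for 26 members, between 10% and 50% for 28 and at or above 50% for 17, with a median of 21.9%. By family, the median share left was 1.58% in the nexin-dynein regulatory complex, 2.16% in tektins, 11.2% in CFAP genes, 29.6% in dynein heavy chains, 32.7% in radial spoke genes, 40.7% in dynein intermediate and light chains and 48.2% in assembly factors. Without Control replicate 2 the median of tektins was 3.53%. Each family held at least 1 gene with under 10% left beside genes that kept far more, such as *Drc3* with 44.6% and *Tekt2* with 37.0%.

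**Figure D2:**
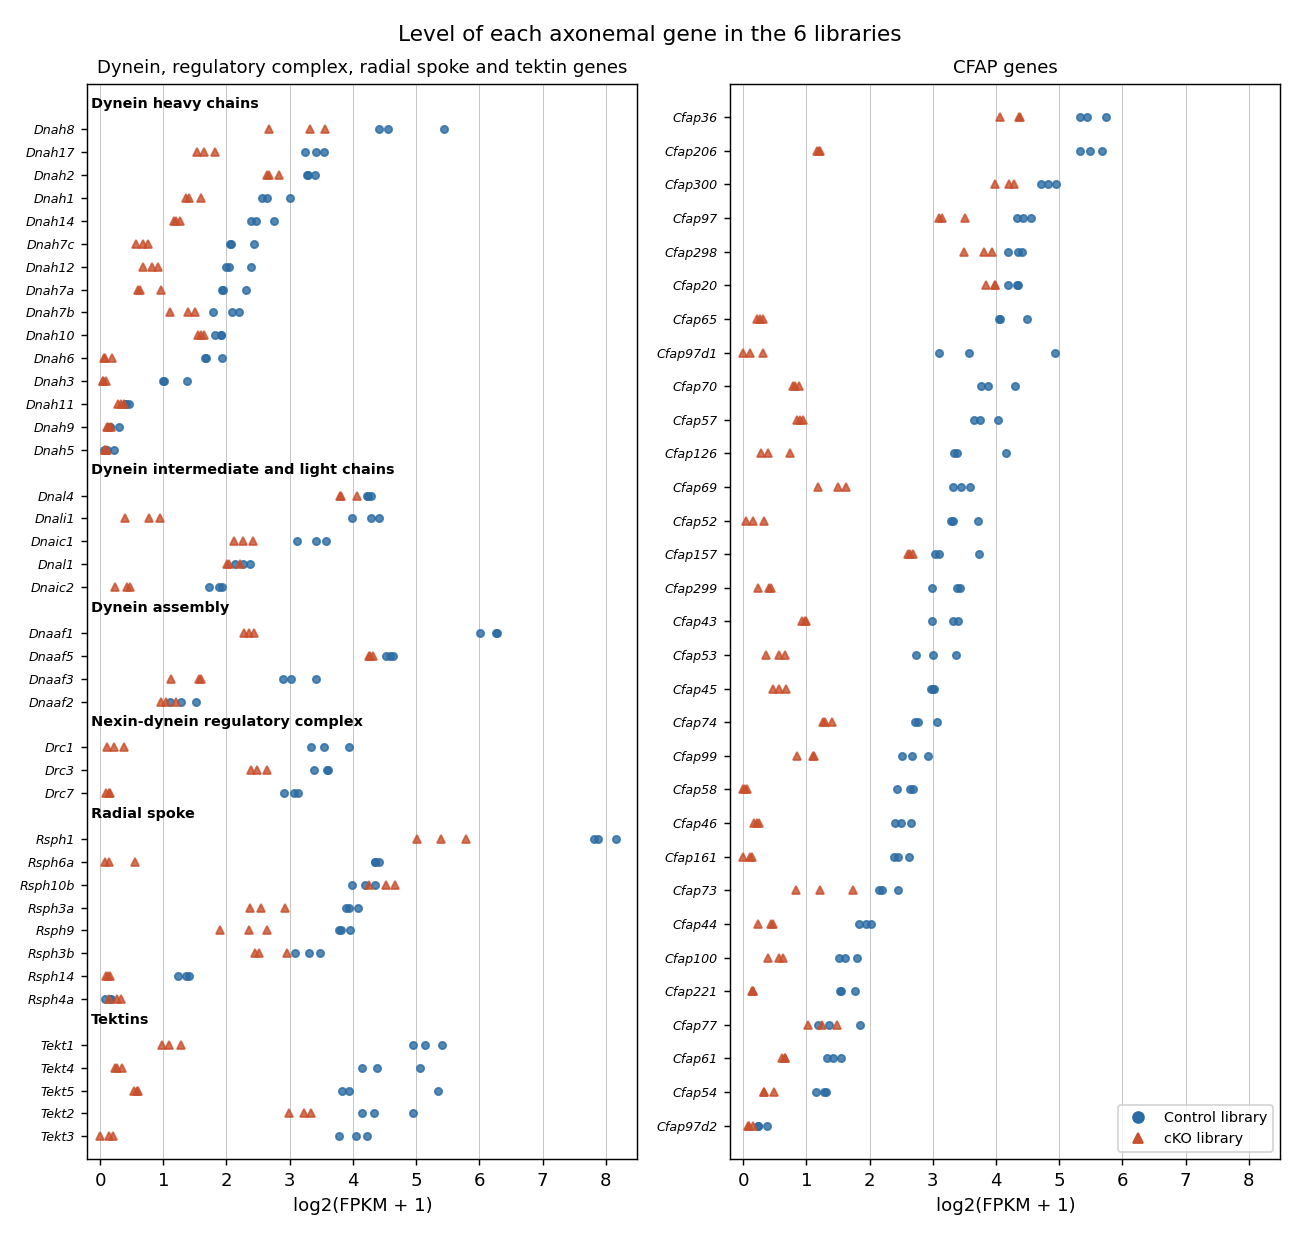
Level of each axonemal gene in log2(FPKM + 1) in the 3 Control libraries (circles) and the 3 cKO libraries (triangles), with genes ordered by their Control mean within each family. The triangles lie to the left of all circles for 64 of the 71 genes, and *Rsph10b* and *Rsph4a* are the genes whose cKO mean lies to the right of the Control mean.

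Dynein heavy chains are the motor subunits of the arms. Of the 15 genes, 11 were tested and 10 were lower (median log2 fold change -1.32), and 11 of the 15 were lower without the filter. Their differences spanned -1.73 to -0.28 on the log2(FPKM + 1) scale. *Dnah8* and *Dnah17* encode the outer arm heavy chains of sperm flagella. *Dnah8* was the most abundant heavy chain in Control, with 42.3, 20.2 and 22.6 FPKM against 5.39, 10.8 and 9.0 FPKM in cKO (log2 fold change -1.62 ± 0.32, adjusted p = 0.0089). Its Control replicate 1 was the highest of the 3, and the groups did not overlap. *Dnah17* had 10.7, 8.44 and 9.64 FPKM in Control and 2.12, 2.53 and 1.9 FPKM in cKO, or 22.8% left (-1.73 ± 0.13, adjusted p = 8.7e-05). The outer arm heavy chains known from airway cilia, *Dnah5*, *Dnah9* and *Dnah11*, were detected at under 1 FPKM in all libraries and were not tested with the filter.

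*Dnah2* and *Dnah10* encode the heavy chains of the inner arm with a pair of motor heads. *Dnah2* had 9.55, 8.76 and 8.72 FPKM in Control and kept 5.27, 5.38 and 6.13 FPKM in cKO (-0.60 ± 0.093, adjusted p = 0.0029). *Dnah10* had 2.77, 2.78 and 2.52 FPKM against 2.13, 1.93 and 2.03 FPKM, groups that did not overlap, but the difference did not pass (-0.28 ± 0.11, adjusted p = 0.093). Without the trend in the variance, or with limma-voom on fragment counts, *Dnah10* passed at an adjusted p of 0.041 and 0.028. These genes kept 62.1% and 75.5% of their Control means.

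The remaining heavy chains are inner arm motors with a single head or are thought to be. *Dnah1* had 7.03, 5.21 and 4.9 FPKM in Control and 2.03, 1.58 and 1.64 FPKM in cKO (-1.28 ± 0.15, adjusted p = 0.00087). *Dnah14* had 5.72, 4.52 and 4.23 FPKM in Control and 1.31, 1.24 and 1.4 FPKM in cKO (-1.32 ± 0.13, adjusted p = 0.0004). Both fell to about the same share of Control, 30.6% and 27.3%. *Dnah6* was nearly lost, with 2.8, 2.19 and 2.16 FPKM in Control and 0.144, 0.0464 and 0.0596 FPKM in cKO (-1.64 ± 0.15, adjusted p = 0.00026), and cKO replicate 1 was the highest of the cKO libraries. *Dnah3*, with a mean under 1 FPKM, was lower in the fit without the filter.

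*Dnah7a*, *Dnah7b* and *Dnah7c* are near copies on chromosome 1, and 80.9%, 85.7% and 76.1% of their 100-base windows occur in no other annotated gene, so fragments may have been shared among them. *Dnah7b* had 3.58, 2.44 and 3.27 FPKM in Control and 1.61, 1.82 and 1.15 FPKM in cKO (-0.70 ± 0.17, adjusted p = 0.019), and it lost its call with quantile normalisation (-0.375, adjusted p = 0.13), with the replicate number as a block (0.058) and without Control replicate 1 (0.066), Control replicate 3 (0.064) or cKO replicate 3 (0.065). The shares left were 49.2% for *Dnah7b*, 21.2% for *Dnah7a* and 16.4% for *Dnah7c*. *Dnah12*, the remaining heavy chain that was tested, kept 21.9%.

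Intermediate and light chains form the base of the arms and regulate the motors. Of the 5 genes, 4 were lower (median log2 fold change -1.10). *Dnali1*, the light chain of single-headed inner arms, was nearly lost, with 18.4, 20.2 and 14.9 FPKM in Control and 0.925, 0.32 and 0.709 FPKM in cKO (-3.52 ± 0.18, adjusted p = 1.7e-05). The outer arm intermediate chains were unequal in the share left. *Dnaic2* had 2.3, 2.7 and 2.81 FPKM against 0.39, 0.179 and 0.346 FPKM (-1.47 ± 0.15, adjusted p = 0.00037), which left 11.7%. *Dnaic1* had 10.9, 7.67 and 9.68 FPKM against 3.34, 4.37 and 3.78 FPKM (-1.10 ± 0.15, adjusted p = 0.0014), which left 40.7%. The light chains *Dnal4* and *Dnal1* stayed near Control. *Dnal4* had 18.4, 17.8 and 17.7 FPKM against 15.8, 12.9 and 13.1 FPKM (-0.35 ± 0.093, adjusted p = 0.027), a call that was lost in 7 of the alternatives, namely quantile normalisation (-0.20, adjusted p = 0.12), the replicate block (0.064), limma-voom (0.053) and the fits without Control replicate 1 (0.082), Control replicate 3 (0.071), cKO replicate 2 (0.077) or cKO replicate 3 (0.1). *Dnal1*, a light chain of the outer arm, had 4.2, 3.39 and 3.77 FPKM against 3.64, 3.03 and 3.11 FPKM, groups that overlapped (-0.17 ± 0.12, adjusted p = 0.32).

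Dynein assembly factors act in the cytoplasm. *Dnaaf1*, the second most abundant of the 71 members in Control, had 75.8, 76.2 and 63.1 FPKM there and 3.84, 4.43 and 4.1 FPKM in cKO (-3.82 ± 0.099, adjusted p = 1.5e-06). *Dnaaf3* had 7.12, 9.68 and 6.47 FPKM against 2.03, 1.17 and 1.95 FPKM (-1.69 ± 0.19, adjusted p = 0.00068). The groups stood far apart for both genes. *Dnaaf5* was nearly as high in cKO, with 23, 23.8 and 22.1 FPKM against 18.9, 18.2 and 18.1 FPKM (-0.31 ± 0.066, adjusted p = 0.012), and lost its call with quantile normalisation (-0.18, adjusted p = 0.067), with the replicate block (0.066) and without cKO replicate 3 (0.056). *Dnaaf2* had 1.86, 1.42 and 1.16 FPKM against 1.05, 0.947 and 1.3 FPKM and did not pass (-0.24 ± 0.16, adjusted p = 0.3). Other annotated genes cover 71.4% of the exonic bases of *Dnaaf2*, 20.7% of those of *Dnaaf1*, 16.5% of *Dnaaf3* and 10.6% of *Dnaaf5*, in part on the opposite strand, and whether strand was used in counting is not given in the sources used here.

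All 3 genes of the nexin-dynein regulatory complex were lower with and without the filter, and the groups of each were apart. *Drc1*, which lies at the base of the link, had 14.4, 10.6 and 9.11 FPKM in Control and 0.166, 0.0764 and 0.294 FPKM in cKO (-3.37 ± 0.18, adjusted p = 2.1e-05). *Drc7* had 7.78, 7.34 and 6.48 FPKM against 0.106, 0.114 and 0.0661 FPKM (-2.90 ± 0.12, adjusted p = 8.5e-06). Both kept under 2% of the Control mean, 1.58% for *Drc1* and 1.33% for *Drc7*. *Drc3* kept 44.6%, with 11.2, 9.4 and 11 FPKM against 4.59, 5.26 and 4.25 FPKM (-1.02 ± 0.11, adjusted p = 0.00055). Subunits of a single complex thus differed in the share of transcript left.

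Radial spoke genes ranged from the most abundant of the 71 members to one near 0. Of the 8 genes, 6 were tested and 5 were lower (median log2 fold change -1.45), and 6 of the 8 were lower without the filter. *Rsph1*, a spoke head protein, had 285, 224 and 233 FPKM in Control and 54.5, 31.2 and 40.8 FPKM in cKO (-2.55 ± 0.20, adjusted p = 0.00012). Even so, *Rsph1* was the highest of the 71 members in cKO. The spoke head protein of sperm, *Rsph6a*, had 19.4, 20.4 and 19.3 FPKM against 0.102, 0.0547 and 0.474 FPKM (-4.11 ± 0.15, adjusted p = 4.5e-06). Its paralogue *Rsph4a*, which serves in airway cilia, stayed under 1 FPKM in all libraries. *Rsph9*, also of the head, had 12.8, 14.5 and 13 FPKM against 2.74, 4.13 and 5.26 FPKM (-1.55 ± 0.19, adjusted p = 0.00089).

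The spoke stalk protein RSPH3 is encoded by a pair of near copies on chromosome 17, *Rsph3a* and *Rsph3b*, with 51.8% and 47.2% of their 100-base windows in no other gene, so their separate values are uncertain. *Rsph3a* had 14.4, 13.8 and 15.9 FPKM against 4.86, 6.59 and 4.15 FPKM (-1.36 ± 0.15, adjusted p = 0.00062). *Rsph3b* had 8.85, 7.46 and 10.1 FPKM against 6.74, 4.69 and 4.46 FPKM (-0.65 ± 0.17, adjusted p = 0.025), and lost its call with quantile normalisation (-0.38, adjusted p = 0.11) and without Control replicate 1 (0.073), Control replicate 3 (0.081), cKO replicate 2 (0.075) or cKO replicate 3 (0.086). *Rsph14* had a mean under 1 FPKM and was lower without the filter.

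*Rsph10b* was the member tested whose cKO mean lay above Control, with 14.8, 17.2 and 19.4 FPKM in Control and 22.1, 24.5 and 18 FPKM in cKO. The groups overlapped, since cKO replicate 3 lay below Control replicate 3, and the difference did not pass (0.32 ± 0.14, adjusted p = 0.13). Of its exonic bases, 15.7% lie in other annotated genes, among them *Pms2* on the same strand. Quantile normalisation raised the median difference of all genes to 0.22, and under it *Rsph10b* was called higher (0.44, adjusted p = 0.035) while *Cfap77*, *Dnaaf2*, *Dnah10* and *Dnal1* lay above 0 without a call. Relative to that median of all genes, *Dnaaf2* at 0.19, *Cfap77* at 0.17, *Dnal1* at 0.15 and *Dnah10* at 0.044 were still below it.

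Tektins are filament proteins of the doublet wall. All 5 were lower with and without the filter (median log2 fold change -3.90), and all of them had their highest level in Control replicate 2. *Tekt1* had 34.2, 41.3 and 29.8 FPKM in Control and 0.981, 1.43 and 1.14 FPKM in cKO (-4.04 ± 0.14, adjusted p = 4.2e-06). *Tekt3* had 15.5, 17.7 and 12.8 FPKM in Control and 0.109, 0.0 and 0.151 FPKM in cKO (-3.90 ± 0.15, adjusted p = 4.9e-06), of which the cKO values rest on 3, 0 and 4 fragments. *Tekt4* had 16.7, 32.2 and 19.9 FPKM against 0.208, 0.267 and 0.172 FPKM (-4.25 ± 0.23, adjusted p = 2.1e-05). These genes kept at most 3.37% of the Control mean. *Tekt5*, known from sperm, had 13.2, 39.8 and 14.3 FPKM against 0.493, 0.454 and 0.51 FPKM (-3.80 ± 0.39, adjusted p = 0.00039). *Tekt2* was the tektin that remained, with 19.1, 29.9 and 16.7 FPKM against 6.9, 9.06 and 8.35 FPKM (-1.30 ± 0.21, adjusted p = 0.0038), or 37.0% left. Of its exonic bases, 20.8% are shared with a gene on the opposite strand.

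CFAP genes encode proteins from many places in the axoneme. Of the 31, 29 were tested and 28 were lower (median log2 fold change -2.02, range -4.31 to -0.21), but 17 of these 29 passed the filter through Control only. Without the filter, 28 of the 31 were lower (median -1.68). *Cfap206*, which is known at the base of a radial spoke, had the most negative difference of the members on the log2(FPKM + 1) scale, with 43.9, 50.4 and 39.2 FPKM in Control and 1.31, 1.24 and 1.32 FPKM in cKO (-4.31 ± 0.11, adjusted p = 1.3e-06). With a pseudocount of 0.1 its difference was -5.00, less than that of *Cfap65* (-5.86) and of *Cfap97d1* (-6.20), so the order of the members depends on the scale. *Cfap65*, a protein of the central apparatus, had 21.4, 15.5 and 15.8 FPKM against 0.244, 0.201 and 0.16 FPKM (-3.93 ± 0.15, adjusted p = 4.8e-06). *Cfap97d1*, required for the sperm flagellum, had 7.53, 29.4 and 10.9 FPKM against 0.239, 0.0 and 0.0824 FPKM (-3.72 ± 0.44, adjusted p = 0.00079). Its cKO values rest on 3, 0 and 1 fragments, and its Control replicate 2 was 3.19 times the mean of the other two Control libraries.

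The most abundant CFAP genes in Control other than *Cfap206* fell less. *Cfap36* had 52.4, 39.0 and 42.5 FPKM in Control and 19.9, 19.5 and 15.7 FPKM in cKO (-1.23 ± 0.14, adjusted p = 0.0006). *Cfap97* had 22.6, 19.2 and 20.6 FPKM against 7.59, 10.4 and 7.88 FPKM (-1.19 ± 0.13, adjusted p = 0.00051). Both kept about the same share, 41.2% and 41.4%. *Cfap300* and *Cfap298* are known to act in dynein arm assembly. *Cfap300* had 30, 27.3 and 25.2 FPKM against 17.5, 18.6 and 14.8 FPKM (-0.67 ± 0.11, adjusted p = 0.0034). *Cfap298* had 19.3, 20.3 and 17.2 FPKM against 10.3, 13 and 14.4 FPKM (-0.56 ± 0.13, adjusted p = 0.015), a call that was lost without Control replicate 1 (adjusted p = 0.052), and 53.6% of its exonic bases are shared with genes on the opposite strand. *Cfap20*, which seals the inner junction of the doublet and is also found at centrioles, kept 77.2%, with 19.1, 17.2 and 19.4 FPKM against 14.8, 13.3 and 14.9 FPKM (-0.35 ± 0.083, adjusted p = 0.017). Its call was lost with quantile normalisation (-0.21, adjusted p = 0.1) and without Control replicate 1 (0.059), Control replicate 3 (0.066) or cKO replicate 2 (0.051). *Cfap77*, a doublet protein, had 1.27, 2.61 and 1.56 FPKM against 1.79, 1.04 and 1.38 FPKM, groups that overlapped (-0.21 ± 0.22, adjusted p = 0.49).

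The other CFAP genes are given by their known place, a grouping that was made after their values were seen. Proteins of the lumen of the doublet microtubules are encoded by *Cfap45*, *Cfap52*, *Cfap53*, *Cfap126* and *Cfap161*. All of these were lower, with log2 fold changes from -3.27 for *Cfap52* to -2.40 for *Cfap161*, and they kept at most 7.09% of the Control mean, whereas the doublet proteins *Cfap20* and *Cfap77* described above kept 77.2% and 77.4%. Proteins of the central apparatus are encoded by *Cfap46*, *Cfap54*, *Cfap69*, *Cfap70*, *Cfap74* and *Cfap221*, besides *Cfap65*. The 5 of them that passed the filter were lower, from -3.15 for *Cfap70* to -1.46 for *Cfap221*, and they kept 3.36% (*Cfap46*) to 23.9% (*Cfap74*). *Cfap54* had a mean under 1 FPKM and was lower without the filter. The tether proteins of an inner arm motor, *Cfap43* and *Cfap44*, kept 11.2% and 11%. *Cfap73* and *Cfap100*, which form a complex at the inner arms, kept 39.0% and 21.1%, and *Cfap61*, of a complex at the base of the spokes, kept 33.2%.

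Of the CFAP genes not placed above, *Cfap58* had 4.41, 5.44 and 5.22 FPKM in Control and 0.019, 0.0 and 0.0393 FPKM in cKO (1, 0 and 2 fragments). It was chosen after its values were seen, as was *Cfap157*, which kept 58.3% and whose call (-0.64 ± 0.19, adjusted p = 0.037) was lost in 7 of the alternatives. *Cfap57*, *Cfap99* and *Cfap299* kept 6.61%, 18.8% and 3.31%. *Cfap97d2* was at most 0.299 FPKM in the 6 libraries and was not tested with the filter.

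**Figure D3:**
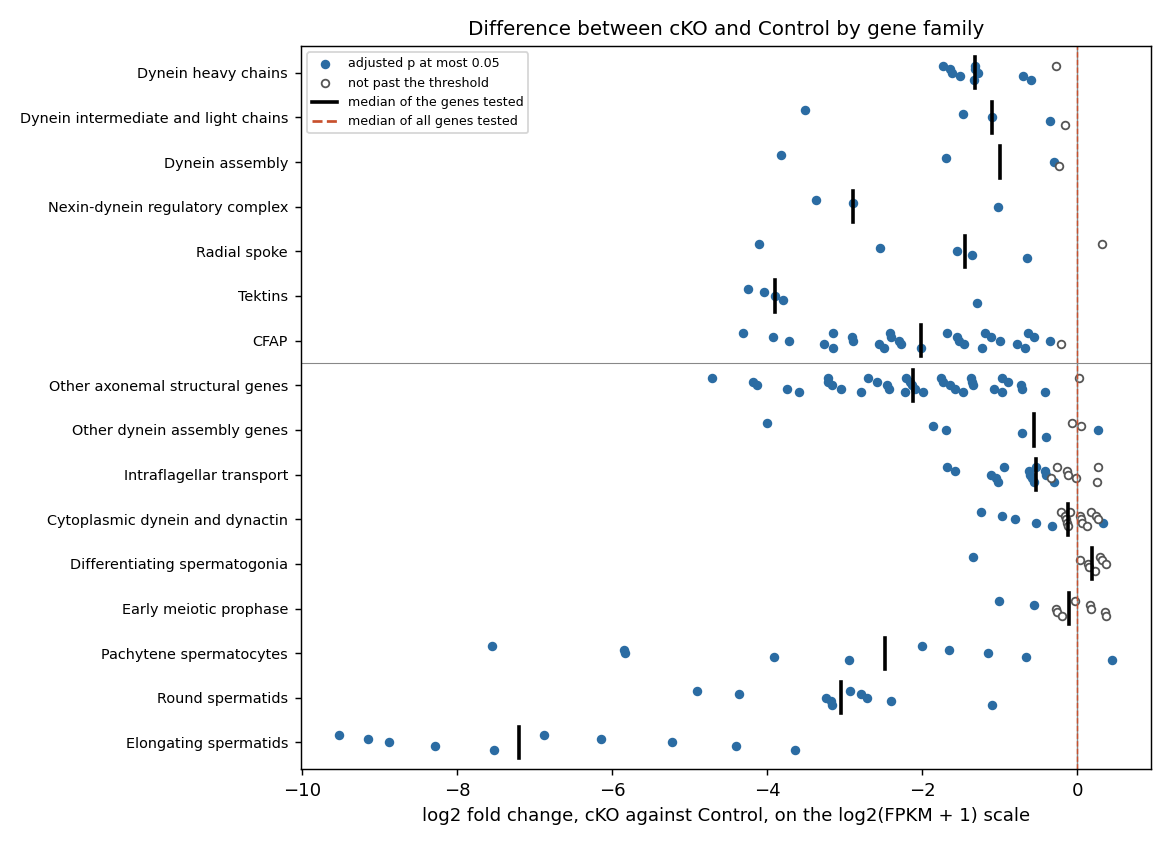
Difference between cKO and Control (log2 fold change on the log2(FPKM + 1) scale) for each gene tested, by family of axonemal genes above the line and for other lists below it. Filled points passed an adjusted p of 0.05, open points did not, the short bars are the medians of each list, and the dashed line is the median of all genes tested (-0.0082). The axonemal families lie between -4.31 and 0.32, the median of tektins on this scale is -3.90, and spermatid markers extend to -9.52.

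Genes of the axoneme with other symbols were read from a list of 39, among them *Ccdc39*, *Hydin*, *Spag6* and *Enkur*. Without the filter, 36 of the 39 were lower (median log2 fold change -1.99), where 12.1% of all genes in that fit were. With it, 35 of 36 were lower (median -2.11, against 22.2% of all genes lower), of which 17 passed the filter through Control only, and *Efhc2* was the gene that did not pass the test (0.020 ± 0.18, adjusted p = 0.94). The highest of them, *Ropn1l*, a radial spoke protein, had 212, 280 and 184 FPKM in Control and 6.78, 6.14 and 10.2 FPKM in cKO (-4.71 ± 0.21, adjusted p = 1e-05). Some of these genes encode partners of the members in the nexin-dynein regulatory complex. Of these, *Ccdc65* and *Tcte1* had log2 fold changes of -4.18 and -2.70, while *Gas8* had -0.98 and *Efcab2* had -0.425. *Efcab2* kept 73.0% of its Control mean and lost its call without the filter (adjusted p = 0.057). The subunits thus also differed among themselves.

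Of 9 further genes of dynein assembly, 8 were tested, with a median of -0.56. Of these, 5 were lower and 1 higher, beside 22.2% of all genes lower and 11.8% higher. Without the filter, 6 of the 9 were lower and 0 higher, where 12.1% of all genes in that fit were lower. The lower genes included *Zmynd10*, which had 39.4, 35 and 31.2 FPKM against 1.91, 0.77 and 1.17 FPKM (-4.01 ± 0.19, adjusted p = 1.3e-05). The higher gene was *Ruvbl1*, an ATPase that also serves in chromatin remodelling (0.27 ± 0.075, adjusted p = 0.031, and 0.051 without the filter). Intraflagellar transport genes, which move cargo along cilia, gave 14 of 21 lower, with a median of -0.53. That count was 12 without the filter and 9 with quantile normalisation. Cytoplasmic dynein and dynactin genes had a median of -0.13. Of the 19 tested, 5 were lower and 1 higher, beside 22.2% of all genes lower and 11.8% higher. The most negative of them was *Dync2li1* (-1.24), of the dynein that serves intraflagellar transport.

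Of 14 regulators of ciliary and spermatid genes, 12 were tested, of which 7 were lower and 2 higher, beside 22.2% of all genes lower and 11.8% higher. *Rfx2*, a regulator of spermatid genes, had 17.0, 16.2 and 15.1 FPKM in Control and 4.76, 3.97 and 4.32 FPKM in cKO (-1.68 ± 0.094, adjusted p = 2.7e-05). *Foxj1*, the forkhead regulator of motile cilia, had 6.6, 6.84 and 6.22 FPKM against 3.2, 2.94 and 2.73 FPKM (-0.93 ± 0.099, adjusted p = 0.00049). *Rfx4*, *Sox30*, *Crem*, *Tcfl5* and *Tbpl1* were also lower. *Rfx3* was higher, with 2.46, 2.7 and 2.53 FPKM against 4.22, 4.54 and 3.91 FPKM (0.55 ± 0.11, adjusted p = 0.0075), and so was *Mcidas* (0.70 ± 0.19, adjusted p = 0.031, and 0.066 without the filter). *Rfx1*, *Ccno* and *Mybl1* did not pass the test. Whether these regulators act on the members was not tested.

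Markers of later germ cell stages moved with the members. Of the spermatid markers, 10 of 10 for round spermatids (median log2 fold change -3.05) and 10 of 10 for elongating spermatids (-7.20) were lower, as were 9 of 10 for pachytene spermatocytes (-2.48), of which the other, *Nxf2*, was higher (0.44 ± 0.12, adjusted p = 0.032, and 0.065 without the filter). Of these, 7 round spermatid, 7 elongating spermatid and 3 pachytene markers passed the filter through Control only, and without the filter 10 of 10, 10 of 10 and 9 of 10 were lower, where 12.1% of all genes were. The summed level of the elongating spermatid markers was 2790, 9010 and 2720 FPKM in Control and 6.99, 7.41 and 6.22 FPKM in cKO. Among markers of earlier stages, 2 of 10 were lower for early meiotic prophase and 1 of 8 for differentiating spermatogonia. Of 7 tested for undifferentiated spermatogonia, 1 was lower and 1 higher, beside 22.2% of all genes lower and 11.8% higher. The earlier markers that were lower were *Spo11* (-1.01) and *Rec8* (-0.56), *Dmrtb1* (-1.35) and *Id4* (-1.30), and the higher gene was *Ret* (0.57). *Stra8*, the gene of the labelled cells, had 262, 222 and 250 FPKM in Control and 242, 313 and 262 FPKM in cKO (0.15 ± 0.12, adjusted p = 0.36). The part of these stages in the levels of the axonemal genes was not tested.

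Markers of Sertoli cells were present in both groups. Of the other somatic markers, 4 of 6 for Leydig cells and 1 of 4 for peritubular cells stayed under 1 FPKM in all libraries. So did 4 of 7 for macrophages, blood and endothelium. The 8 Sertoli cell markers summed to 43.7, 36.6 and 52.4 FPKM in Control and 78.1, 31.7 and 41.1 FPKM in cKO, so that cKO replicate 1 stood above the other libraries, with 1 of 7 tested higher (*Rhox5*, 0.72 ± 0.19, adjusted p = 0.028, and 0.056 without the filter), beside 11.8% of all genes. The highest of them was *Amhr2*, with 23.9, 20.9 and 28.8 FPKM in Control and 37.9, 15.6 and 19.4 FPKM in cKO. Of the markers of Leydig cells, peritubular cells, and macrophages, blood and endothelium that were tested, those nearest to the threshold were *Star* (0.42 ± 0.14, adjusted p = 0.051) and *Tagln* (0.445 ± 0.15, adjusted p = 0.055). Multiciliated epithelium, which also makes axonemes, and duct epithelium were read from 11 markers together. *Gmnc* and *Tmem212* were at 0 in all 6 libraries and *Cdhr3* at most at 0.0279 FPKM. Among the 4 of these markers that were tested, *Foxj1* and *Deup1* were lower, *Mcidas* was higher and *Ccno* did not pass.

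Control replicate 2, which had the highest sum of elongating spermatid markers, was set against the other Control libraries. Its FPKM was over 1.5 times the mean of Control replicates 1 and 3 for 11 of the 71 members (7 of the 63 tested) and for 1772 of the 15451 genes tested. The share of the members tested was thus close to that of all genes tested. These members were *Cfap97d1* (3.19 times), *Tekt5* (2.90), *Cfap77* (1.84), *Cfap126* (1.82), *Tekt4* (1.75), *Cfap157* (1.67) and *Tekt2* (1.67). The others, with a mean under 1 FPKM, were *Dnah5* (2.69), *Dnah9* (1.99), *Cfap97d2* (1.67) and *Dnah3* (1.59). The median of this ratio was 1.67 for tektins, and for the other families it lay between 0.885 (dynein heavy chains) and 1.07 (assembly factors). It was lowest in *Rsph4a* (0.44) and *Dnah8* (0.622). By library, 36 members were highest in Control replicate 1, 28 in Control replicate 2 and 7 in Control replicate 3, where 5768, 5974 and 3709 of all genes tested were. All 10 elongating spermatid markers were highest in Control replicate 2, at 2.38 to 3.65 times the other two. Without this library, 58 members were still lower.

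**Figure D4:**
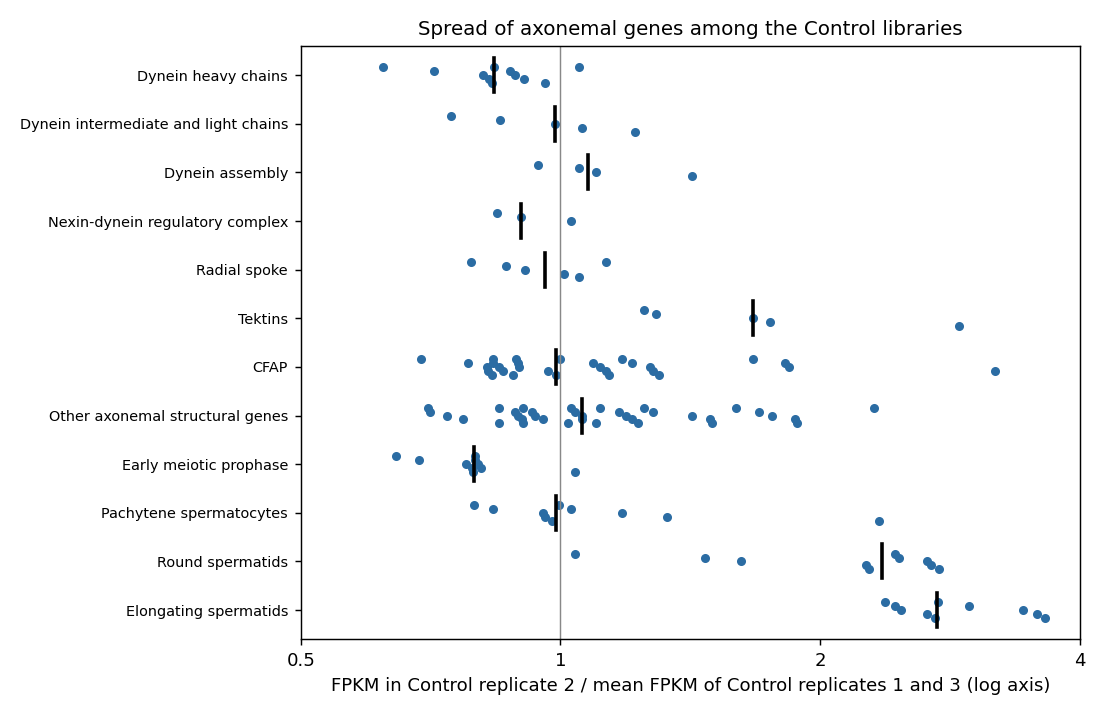
FPKM in Control replicate 2 divided by the mean of Control replicates 1 and 3 (log axis), for each gene tested, by family of axonemal genes and for germ cell stage markers. Bars are medians and the vertical line marks a ratio of 1. Tektins lie to the right of the line (1.25 to 2.90) like round and elongating spermatid markers, while the median of dynein heavy chains lies to the left.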

How the data were processed

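RNA-seq libraries of STRA8+ testis cells, 3 Control and 3 cKO, were grouped by the genotype and number in their labels. The authors deposited a table of FPKM for 54532 genes with gene lengths. The submitters' processing notes name HISAT2 2.0.5 and mm10, and the counting tool is not given in the sources used here. FPKM multiplied by gene length gave whole fragments (within 0.02) for 100% of values, and the deposited FPKM carry a library factor of 0.971 to 1.05. Depth was 14447887 to 17310353 fragments per library.

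Genes whose mean over the 6 libraries reached 1 FPKM were tested on log2(FPKM + 1) by limma (version 3.58.1, R 4.3.3, eBayes with trend), with Benjamini-Hochberg adjustment over 15451 genes and a threshold of 0.05. The computation was tested on simulated data. Members and gene lists were chosen with earlier results of these data known. Named are all members of families of 10 or fewer and, in larger families, the 5 highest in Control, the 3 most negative and the 3 nearest to 0 or above it, and members with a mean under 1 FPKM are named without statistics of the filtered test. The other CFAP genes, *Dnah7a*, *Dnah7c* and *Dnah12* were named after their values were seen, as were the genes named from the other lists. The alternatives were another pseudocount, filter, scaling or variance model, a replicate block, limma-voom on fragments, and leaving out each library. Shared bases and unique windows come from GENCODE M21, in which 66 of the 71 members have the coordinates of the table, and promoters from RefSeq (GRCm38.p6).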

Additional observations from a re-analysis of the deposited data

How the results depend on the processing

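Of the 58 members called lower, 49 kept the call in every alternative that tested them, and 9 lost it in 1 or more (*Cfap157*, *Dnal4*, *Dnah7b*, *Rsph3b*, *Cfap20*, *Dnaaf5*, *Cfap298*, *Cfap61* and *Cfap73*). The count of members lower was 58 with a pseudocount of 0.1, median-of-ratios scaling or no library factor, 59 without the trend, 57 with limma-voom, 51 with quantile normalisation, 60 of 71 without the filter, and 52 to 58 with 1 library left out. Fewer genes could be tested at a mean of at least 5 FPKM, where 34 of 35 members, 14 of 14 CFAP genes, 3 of 3 dynein heavy chains and 16 of 17 other axonemal genes were lower. With quantile normalisation, 9 of 21 intraflagellar transport genes were lower, 1 member (*Rsph10b*) was higher and 1 had all cKO libraries above Control, and the differences of *Cfap77* (0.165), *Dnaaf2* (0.188), *Dnah10* (0.0443) and *Dnal1* (0.152) changed sign. Over all genes it gave 2527 lower and 5164 higher, so that 32.9% of calls were lower against 65.4% as reported. With 1 library left out, 10 to 12 intraflagellar transport genes were lower, and 969 to 1767 of all genes were higher.

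The labels do not say whether replicate numbers pair the libraries. The deviations of same-numbered Control and cKO libraries from their group means correlated at -0.0014, -0.11 and 0.016. Those of unlike-numbered libraries correlated at -0.155 to 0.135. These values cannot show whether libraries were paired, because the deviations of the 3 libraries in a group sum to 0. With the replicate number as a block, 55 members were lower, *Dnaaf5*, *Dnah7b* and *Dnal4* having lost the call, and 2870 of all genes were lower and 891 higher.

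Depth limits the members nearest to 0. Fewer than 3 fragments were taken as under the floor of a library, which applied to 1 or more cKO libraries for *Tekt3*, *Rsph6a*, *Cfap52*, *Cfap58*, *Cfap97d1* and *Cfap161*, so their differences in cKO are poorly bounded.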
